A study of Mus musculus with 3 samples.

Results

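Fibroblast-like wells of the mouse heart were divided by their level of Postn, the gene of periostin, a matrix protein that marks fibroblasts activated by injury, and the wells with high Postn were compared with the wells almost without it. The wells come from single-well RNA sequencing on the iCELL8 platform, in which dispensed cells are imaged and wells holding a single live cell are taken into library preparation. There was 1 library each for days 1, 2 and 3. Values are in CPM, the counts of a gene per 1000000 counts of nuclear-encoded mouse genes. Wells with at least 1000 counts and 300 detected genes were kept, 3376 of 3394. A kept well was called fibroblast-like when Dcn, Col1a1, Col3a1 and Lum, which encode decorin, 2 fibrillar collagen chains and lumican, summed to at least 1000 CPM, and when the macrophage genes Lyz2, C1qa, C1qb and C1qc summed to under 1000 CPM. This took in 377 wells. Postn at 100 CPM or more defined the Postn-high class, with 46 wells, and Postn under 20 CPM the Postn-low class, with 319 wells. The 365 wells of these classes are described here, and the 12 wells between the limits were left out.

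Every library was labelled as heart tissue, as adult cardiomyocytes and as treated with tamoxifen (spelt "tarmoxifen" in the labels). The drug label covers whole libraries, so no day lacks it, but the treatment of single wells is not given. The genotype labels read D1_INO80_OE for day 1, D2_INO80_OE for day 2, and D3_INO80_OE together with D3_Ctrl for day 3. The title of the series names Myh6-MCM, a tamoxifen-dependent Cre recombinase driven by the cardiomyocyte myosin promoter, with floxed Ino80 and heart failure, whereas the design speaks of an induction of Ino80, the ATPase of a chromatin remodelling complex. Day 0, which the design also names, was not analysed here. Nothing in the files ties a day 3 well to a genotype, so overexpressing and control hearts cannot be told apart on that day. The sources used here give no strain, age, sex or number of mice per library.

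Cardiac fibroblasts maintain the collagen and proteoglycan matrix of the heart, and in the resting state they express genes such as Pdgfra, Tcf21 and Gsn. After injury or stress they divide, secrete collagens, matricellular proteins and crosslinking enzymes, and in part acquire the contractile proteins of a myofibroblast, largely under transforming growth factor beta and mechanical load. Postn and Cthrc1 mark that state in mouse hearts, and Acta2, smooth muscle actin, marks its contractile form.

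The Postn-high wells came mostly from day 3, with 11 wells on day 1, 9 on day 2 and 26 on day 3, and the Postn-low wells numbered 148, 118 and 53. The share of fibroblast-like wells that were Postn-high was 6.79% on day 1 (95% Clopper-Pearson interval 3.44 to 11.8), 6.87% on day 2 (3.19 to 12.6) and 31.0% on day 3 (21.3 to 42.0). The intervals of days 1 and 2 overlap, and the day 3 interval lies above both. They cover the counting of wells only. With 1 library per day the shares compare libraries and have no replicate check. In the other kept wells, Postn at 100 CPM or more was found in 13 of 1063 wells on day 1, 25 of 928 on day 2 and 52 of 1008 on day 3.

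**Figure D1:**
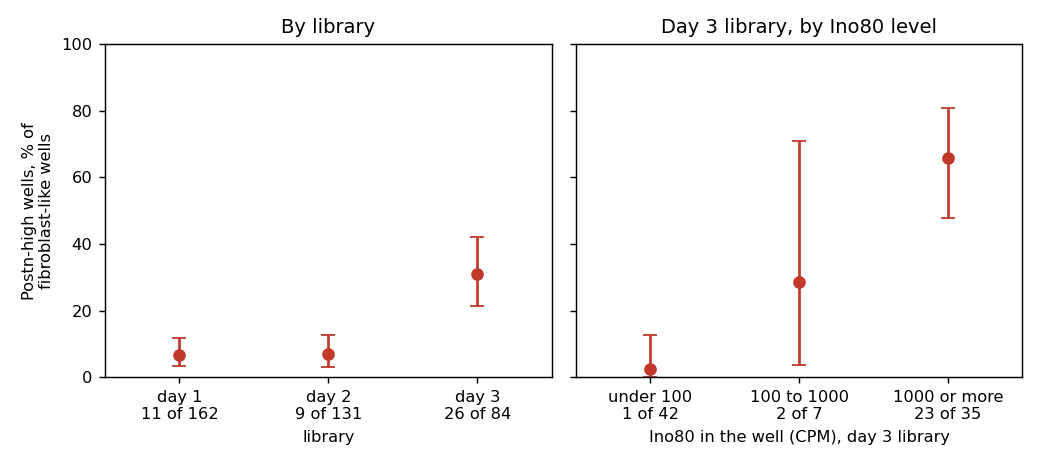
The share of fibroblast-like wells that were Postn-high (percent, vertical axis) for the libraries of days 1, 2 and 3, and for day 3 divided by the Ino80 level of the well; points are shares and error bars are exact 95% intervals. Day 3 stands at 31.0% against 6.79% on day 1, and within day 3 the share is 2.38% under 100 CPM of Ino80, 28.6% between and 65.7% at 1000 CPM or more.

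The members were chosen by the measured levels of Postn and 8 other genes, so these values are given as a description. Among Postn-high wells the lowest, median and highest Postn level was 116, 208 and 1680 CPM on day 1, 114, 227 and 2551 CPM on day 2, and 122, 487 and 1561 CPM on day 3. Postn had no count in 143 of 148 Postn-low wells on day 1, 101 of 118 on day 2 and 44 of 53 on day 3. At the limits, the lowest Postn-high wells held 114, 116 and 122 CPM, the wells between held 24.8 to 99.5 CPM, and the highest Postn-low wells held 18.5, 19.2 and 19.97 CPM. The lowest sum of the 4 fibroblast genes in a member was 1006 CPM, against 987 CPM in the nearest well outside. The highest macrophage sum in a member was 986 CPM, against 1201 CPM in the nearest well outside.

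The tables held 487461107, 452070922 and 484369736 counts on days 1, 2 and 3, over 1232, 1063 and 1099 wells. Median counts per well were 396406, 306626 and 351452 in Postn-high wells and 305596, 306926 and 370703 in Postn-low wells on days 1, 2 and 3. Medians of 3718, 3911 and 4745 genes were detected in Postn-high wells and of 3464, 3680 and 3858 in Postn-low wells, and the median mitochondrial share was 38.2%, 25% and 16.3% in Postn-high wells against 38.8%, 39.4% and 20.9% in Postn-low wells. Ino80, the gene the labels name, was at 1000 CPM or more in 1062 of 1225, 1028 of 1059 and 496 of 1092 kept wells on days 1, 2 and 3. Libraries share 278 well barcodes between days 1 and 2, 268 between days 1 and 3, 247 between days 2 and 3, and 67 among all 3, and barcodes were read within a library only.

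Fibroblast markers that the rule did not use were present in both classes. The 6 markers Col1a2, Pdgfra, Tcf21, Gsn, Mgp and Serping1 summed to 5382 CPM in Postn-high and 6192 CPM in Postn-low wells on day 1, 5746 and 5219 CPM on day 2, and 2078 and 3156 CPM on day 3. Gsn, the actin-severing gelsolin, was at 3471, 3247 and 965 CPM in Postn-high and 3759, 3062 and 1930 CPM in Postn-low wells on days 1, 2 and 3. Its day 2 well medians ran the other way from these sums, at 879 CPM in Postn-high and 2602 CPM in Postn-low wells. In macrophage-like wells it was at 135, 202 and 74.1 CPM. Those wells had a macrophage sum of at least 1000 CPM and a sum of the rule's fibroblast genes under 1000 CPM. The labelled cardiomyocyte type was visible in every class as well. A set of 12 ventricular cardiomyocyte markers summed to a median of 93715 CPM in Postn-high and 96562 CPM in Postn-low wells on day 1, and to 92522 CPM in macrophage-like wells of that day, so cardiomyocyte RNA was at a like level in wells of another cell type. Macrophage-like wells should lack fibroblast genes, and their levels are given below as the background from RNA of other cells. Since wells with a high fibroblast sum were left out of them, that background can be understated for fibroblast genes.

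Other markers of the activated state were more frequent in Postn-high than in Postn-low wells on days 2 and 3. On day 1 this held less clearly. Cthrc1 had a count in 0 of 11 Postn-high wells on day 1 (a share of up to 27.3% remains possible), in 3 of 9 on day 2 and in 10 of 26 on day 3, against 0 of 148, 2 of 118 and 0 of 53 Postn-low wells. The matricellular protein gene Tnc had no count in the day 1 Postn-high wells. Timp1 at 100 CPM or more was present in 1 of 11, 6 of 9 and 23 of 26 Postn-high wells on days 1, 2 and 3, and in 7 of 148, 14 of 118 and 8 of 53 Postn-low wells. Mfap5 at that level was present in 10 of 11, 8 of 9 and 25 of 26 Postn-high wells, and in 96 of 148, 83 of 118 and 25 of 53 Postn-low wells. These markers were chosen with earlier results of these data known, so they do not test the name activated. On day 2 the genes of the resting fibroblast were not lower as a group in summed counts. Of 16 measured, 9 were higher (median 0.11), beside 53.1% of all genes. The classes are therefore called by their Postn level.

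On day 3 the Postn-high wells were, with few exceptions, wells with much Ino80 RNA. Ino80 was at 1000 CPM or more in 23 of 26 Postn-high wells and in 9 of 53 Postn-low wells, and under 100 CPM in 1 Postn-high and 40 Postn-low wells. Its median level was 2137 CPM in Postn-high wells and 16.1 CPM in Postn-low wells. Read the other way, the share of Postn-high wells was 1 of 42 fibroblast-like wells under 100 CPM of Ino80 (2.38%, 0.0603 to 12.6), 2 of 7 between 100 and 1000 CPM, and 23 of 35 at 1000 CPM or more (65.7%, 47.8 to 80.9). Days 1 and 2 had no such division, with median Ino80 levels of 1576 CPM in Postn-high and 2218 CPM in Postn-low wells on day 1, and of 2171 and 4469 CPM on day 2.

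**Figure D2:**
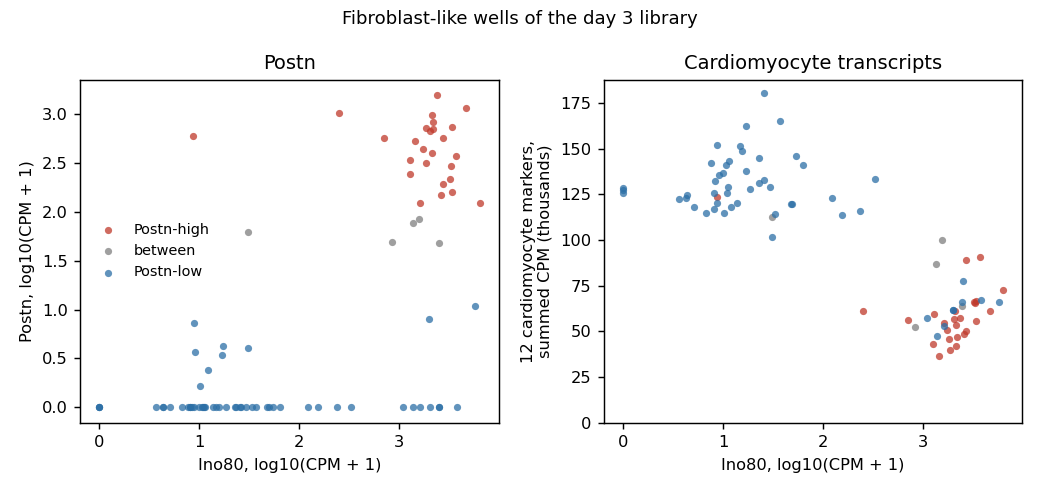
Each point is a day 3 fibroblast-like well, placed by its Ino80 level (log10 of CPM plus 1, horizontal) against its Postn level (the same scale, left) and against the summed level of 12 ventricular cardiomyocyte markers (in units of 1000 CPM, right), with Postn-high wells in red, wells between the limits in grey and Postn-low wells in blue. Of the Postn-high wells 23 lie at 1000 CPM of Ino80 or more and 1 under 100 CPM, against 9 and 40 of the Postn-low wells.

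The level of cardiomyocyte RNA moved with the same division. The 12 ventricular markers had a median of 56399 CPM in Postn-high and 125415 CPM in Postn-low wells on day 3, and of 55629 and 61863 CPM in the 23 and 9 wells with Ino80 at 1000 CPM or more. Their summed level ran from 36253 to 123618 CPM in Postn-high and from 47401 to 180400 CPM in Postn-low wells of day 3. On that day 12 of 12 markers were lower in Postn-high wells, 8 of them at least 2-fold. Of all genes measured on day 3, 60.6% were higher in Postn-high wells and 14.5% at least 2-fold lower. Cardiomyocyte RNA thus took a smaller part of the total in Postn-high wells of day 3, and its part in each day 3 value was not tested. For that reason day 3 results are set beside the values in the 23 Postn-high and 9 Postn-low wells with Ino80 at 1000 CPM or more, a comparison added after these values had been seen. The 9 Postn-low wells differ in another way, since 5 of them held mesothelial markers at 100 CPM or more, against 1 of the 23 Postn-high wells. The summed mesothelial level had a median of 0 and a highest value of 122 CPM in those Postn-high wells, against 118 and 2502 CPM in the Postn-low wells. Mesothelial cells line the outer surface of the heart and express several matrix genes.

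Markers of other cell types were found in both classes. Endothelial markers reached 1000 CPM in 5 of 11, 4 of 9 and 8 of 26 Postn-high wells on days 1, 2 and 3, and in 61 of 148, 52 of 118 and 23 of 53 Postn-low wells. Pericyte and smooth muscle markers reached that level in 1, 2 and 3 Postn-high wells and in 14, 18 and 2 Postn-low wells. The summed macrophage markers had a median of 17.4, 19.2 and 34.2 CPM in Postn-high wells and of 27.1, 22.6 and 11.1 CPM in Postn-low wells, against 5907, 5738 and 3330 CPM in macrophage-like wells. In summed counts fewer cells of a type and less RNA per cell cannot be told apart.

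For genes outside the rule, counts were summed over the wells of a class within a library, and the log2 ratio of Postn-high over Postn-low was taken with 5 CPM added to both sides, which understates the ratio of low genes. A gene was measured when its mean over both classes was at least 20 CPM. No test was made and no p-value is given: each library has a single sum per class, wells of a library are not replicates, and an exact paired permutation test over 3 libraries cannot go below 0.25. Since the wells were divided by Postn, all values of this contrast describe what accompanied Postn. On day 1, 808 of 4394 measured genes reached 2-fold upward in Postn-high wells (18.4%) and 832 reached 2-fold downward (18.9%), with a median gene at −0.01. On day 2 the values were 1051 of 4766 (22.1%), 851 (17.9%) and 0.09. On day 3, 1340 of 4491 genes were higher by that margin (29.8%) and 651 lower (14.5%), with the median gene at 0.36. In the day 3 wells with Ino80 at 1000 CPM or more, 955 of 4661 genes were higher (20.5%) and 966 lower (20.7%), with the median gene at 0.02.

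The split depended on the scaling. Of the genes 2-fold apart, 67.3% were higher on day 3 with CPM, against 45.6% with median-of-ratios size factors and 49.7% in the Ino80 subset, and 49.3% on day 1, against 64.7% with those size factors. The size factors moved the median gene to 0.25 on day 1 and to 0.03 on day 3. Day 3 ratios are therefore to be read relative to 0.36, and the sums of day 1 and 2 Postn-high wells rest on 11 and 9 wells, so that a single well can carry a gene. Of the 3494 genes measured on both day 1 and day 3, 145 were at least 2-fold higher on both days, 35.9% of the 404 on day 1 and 16.8% of the 861 on day 3; over all 3494 genes 11.6% were higher on day 1 and 24.6% on day 3. In the other direction 138 were lower on both days, 19.0% of 725 and 26.2% of 527, beside 20.7% and 15.1% of all 3494 genes.

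The 30 named genes were the 15 highest and 15 lowest by the mean log2 ratio of days 1 and 3, 14 of the 15 highest being described here, among 626 genes that passed the limits on wells and had 1 direction in all 3 libraries; 238 of these were higher and 388 lower. Over that mean, 382 of 3494 genes were at least 2-fold higher (10.9%) and 415 lower (11.9%). The limits held for the wells of all libraries together, and single wells weighed more on days 1 and 2. On day 1 a single well held 95.1% of the Postn-high counts of Fam111a, 93.4% for Timp1, 81.4% for Serpinf1, 79.2% for Fxyd5, 66.2% for Tubb2a, 61.1% for Fbn1, 53.9% for Col8a1 and 50.3% for Tpm2. On day 2 it held 100% for Arrdc4, 95.7% for Fam111a, 73.1% for Arhgef40, 65.0% for Tpm2, 64.1% for Col8a1, 62.5% for Serpinf1 and 52.0% for Vcan. On day 3 the share ran from 11.9 to 28.03% over the higher genes described. Timp1, which encodes a secreted inhibitor of matrix metalloproteinases, led the list. The gene lies on mm10 at chrX:20870166-20874735 on the plus strand. It stood at 106 CPM in Postn-high and 22.8 CPM in Postn-low wells on day 1, at 975 and 83.9 CPM on day 2, and at 2791 and 55.0 CPM on day 3, log2 ratios of 1.99, 3.46 and 5.54. Over the 26 Postn-high wells of day 3 the lowest, median and highest level was 0, 1753 and 11905 CPM, against 0, 3.20 and 957 CPM over the 53 Postn-low wells. In all, 18 Postn-high wells lay above the highest Postn-low well, and 0 Postn-low wells lay above the Postn-high median. In the Ino80 subset Timp1 was at 2814 CPM in Postn-high and 359 CPM in Postn-low wells (2.95), and 7 of those 9 Postn-low wells held 100 CPM or more. Macrophage-like wells of the subset held 44.2 CPM. With every well thinned to 30000 counts, a Timp1 count was seen in 92.3% of Postn-high and 20.8% of Postn-low wells on day 3, against 96.2% and 64.2% before thinning.

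Col8a1, which encodes a short-chain collagen, is on the minus strand at chr16:57624258-57754737. It was at 98.8 CPM in Postn-high and 39.5 CPM in Postn-low wells on day 1, at 320 and 51.4 CPM on day 2 and at 369 and 5.89 CPM on day 3 (1.22, 2.53 and 5.10). The day 3 wells ranged around medians of 170 CPM (0 to 1084) in Postn-high and 0 CPM (0 to 124) in Postn-low wells, and 16 of 26 Postn-high wells were above the highest Postn-low well. In the Ino80 subset the levels were 380 CPM in Postn-high and 23.4 CPM in Postn-low wells (3.76). Macrophage-like wells held 0.308 CPM on day 3.

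The promoters of Postn, which set the classes, and of the leading genes Timp1 and Col8a1 are shown from 250 bases before to 50 after the annotated start, as the genes at the head of the contrast. They are RefSeq sequences on GRCm38.p6, printed 5′ to 3′ on the gene's strand: Postn at chr3:54360857-54361156 on the plus strand, Timp1 at chrX:20869916-20870215 on the plus strand and Col8a1 at chr16:57754688-57754987 on the minus strand. Capitals mark a match on either strand to TGANTCA (AP-1), GGAATG (TEAD) or CAGACA (SMAD), factors that act in activated fibroblasts.
Postn: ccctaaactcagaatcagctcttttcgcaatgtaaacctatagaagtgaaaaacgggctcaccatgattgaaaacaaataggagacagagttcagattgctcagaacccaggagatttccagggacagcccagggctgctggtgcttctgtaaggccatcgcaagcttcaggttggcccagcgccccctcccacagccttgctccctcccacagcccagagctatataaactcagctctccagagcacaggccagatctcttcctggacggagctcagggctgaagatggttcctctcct
Timp1: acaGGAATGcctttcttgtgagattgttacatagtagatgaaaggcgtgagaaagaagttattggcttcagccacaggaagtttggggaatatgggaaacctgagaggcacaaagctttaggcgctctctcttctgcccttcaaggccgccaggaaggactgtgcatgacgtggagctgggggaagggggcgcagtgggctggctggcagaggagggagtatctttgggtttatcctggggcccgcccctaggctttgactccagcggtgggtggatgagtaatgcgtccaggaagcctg
Col8a1: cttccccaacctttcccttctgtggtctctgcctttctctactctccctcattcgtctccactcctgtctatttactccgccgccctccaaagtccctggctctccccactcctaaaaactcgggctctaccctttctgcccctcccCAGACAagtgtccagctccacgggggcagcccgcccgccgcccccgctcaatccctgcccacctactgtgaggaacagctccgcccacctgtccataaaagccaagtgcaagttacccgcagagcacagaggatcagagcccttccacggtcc
The Postn window held no match, the Timp1 window a GGAATG and the Col8a1 window a CAGACA. RefSeq promoters were matched for 11 of the 15 higher named genes (12 windows) and 12 of the 15 lower ones (14 windows). TGANTCA was found in 0 of 12 windows of the higher and 0 of 14 of the lower genes, against 7.81% of all 32851 promoters in the table. GGAATG was found in 1 of 12 (Timp1) and 1 of 14 (Fbxl22), against 14.7% of all promoters. CAGACA was found in 4 of 12 (Arhgef40, Col8a1, Fxyd5 and Serpinf1) and 1 of 14 (Kcnj3), against 21.04% of all promoters. None of the 3 motifs contains another, and a match describes the letters of the window without showing a binding site.

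Among the other higher named genes, 3 more encode fibre proteins of the matrix. Fbn1, fibrillin-1, the backbone of microfibrils, was at 91.8 CPM in Postn-high and 36.7 CPM in Postn-low wells on day 1, at 186 and 41.8 CPM on day 2 and at 329 and 17.5 CPM on day 3, and at 342 and 44.5 CPM in the Ino80 subset. Col5a2, a chain of type V collagen, which nucleates collagen fibrils, was at 43.7 and 31.2 CPM, 333 and 26.5 CPM, and 294 and 9.54 CPM on days 1, 2 and 3, with 302 CPM in Postn-high and 21.1 CPM in Postn-low wells of the subset. Mfap5, a microfibril-associated glycoprotein, was at 1056 and 604 CPM, 4752 and 960 CPM, and 3577 and 297 CPM, with 3627 and 552 CPM in the subset. Each was higher in Postn-high wells in every library, which the limits for naming required. Col5a2 on day 1 was nearest to even, at a log2 ratio of 0.43. On day 3 the well medians were 325 CPM (0 to 899) in Postn-high and 0 CPM (0 to 251) in Postn-low wells for Fbn1, 205 CPM (0 to 930) and 0 CPM (0 to 114) for Col5a2, and 2341 CPM (5.32 to 8200) and 86.3 CPM (0 to 2630) for Mfap5. Of the 26 Postn-high wells 14, 16 and 12 lay above the highest Postn-low well for these 3 genes, so the classes overlapped in part. Fbn1 has an exon that overlaps a gene of the opposite strand, and the sources used here do not state the strand setting of the counting, so reads of such pairs cannot be told apart.

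**Figure D3:**
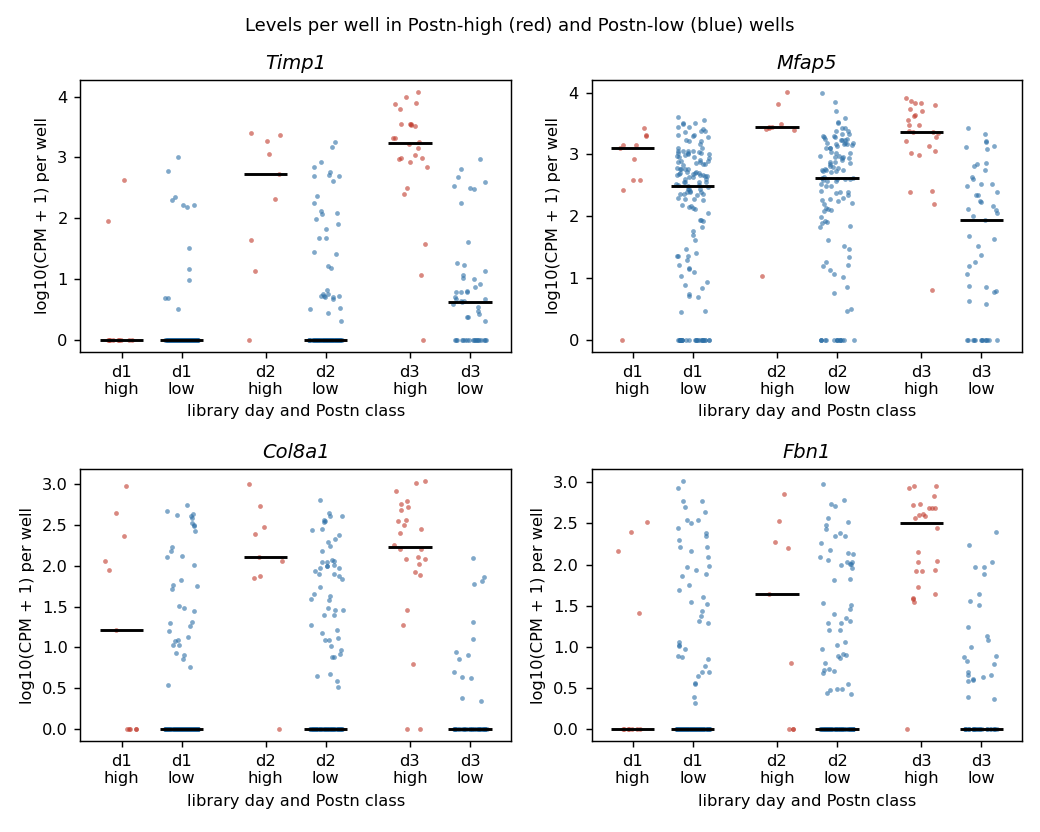
Levels of Timp1, Mfap5, Col8a1 and Fbn1 in single wells (log10 of CPM plus 1, vertical axis) by day, with Postn-high wells left of Postn-low wells; points are wells and bars are medians. On day 3 the Postn-high medians are 1753, 2341, 170 and 325 CPM and the Postn-low medians 3.20, 86.3, 0 and 0 CPM, while on day 1 Timp1 has a count in 2 of 11 Postn-high wells.

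Vcan, the large proteoglycan versican, was at 115 and 39.2 CPM in Postn-high and Postn-low wells on day 1, 642 and 104 CPM on day 2 and 263 and 24.5 CPM on day 3, but at 267 and 167 CPM in the Ino80 subset, where 71.5% of the Postn-low counts came from a single well. Ccn2, connective tissue growth factor, was at 99.5 and 38.5 CPM, 242 and 96.6 CPM, and 178 and 23.1 CPM on days 1, 2 and 3, and at 167 and 106 CPM in the subset. Serpinf1, pigment epithelium-derived factor, was at 203 and 62.3 CPM, 156 and 65.2 CPM, and 181 and 27.6 CPM, with 181 and 87.9 CPM in the subset. These secreted proteins had log2 ratios of 0.66, 0.63 and 1.00 in the subset, smaller than the 3.19, 2.70 and 2.51 of all day 3 wells. For Serpinf1 a single well held 86.7% of the Postn-low counts of the subset. Its well medians there were 94.5 CPM in Postn-high and 0 CPM in Postn-low wells.

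The remaining higher genes act inside the cell or in its membrane. Fxyd5, a regulator of the sodium-potassium pump also called dysadherin, was at 447 and 25.2 CPM on day 3 and at 457 and 9.77 CPM in the subset, with 503 CPM in macrophage-like wells of that subset. Arrdc4, an arrestin-domain protein, was at 109 and 14.97 CPM on day 1 and at 49.0 and 1.52 CPM on day 3, with 48.95 and 6.25 CPM in Postn-high and Postn-low wells of the subset and 142 CPM in macrophage-like wells of the subset. For Fxyd5 and Arrdc4 RNA from macrophages is thus a source whose part was not tested. Tpm2 (beta-tropomyosin), Tubb2a (a beta-tubulin), Arhgef40 (a guanine nucleotide exchange factor) and Fam111a (a serine protease) had day 3 log2 ratios of 3.02, 2.30, 1.88 and 3.55, and 0.68, 0.57, 0.15 and 1.64 in the subset. A single well of the subset held 96.2% of the Postn-low counts of Arhgef40 and 100% of those of Fam111a.

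**Figure D4:**
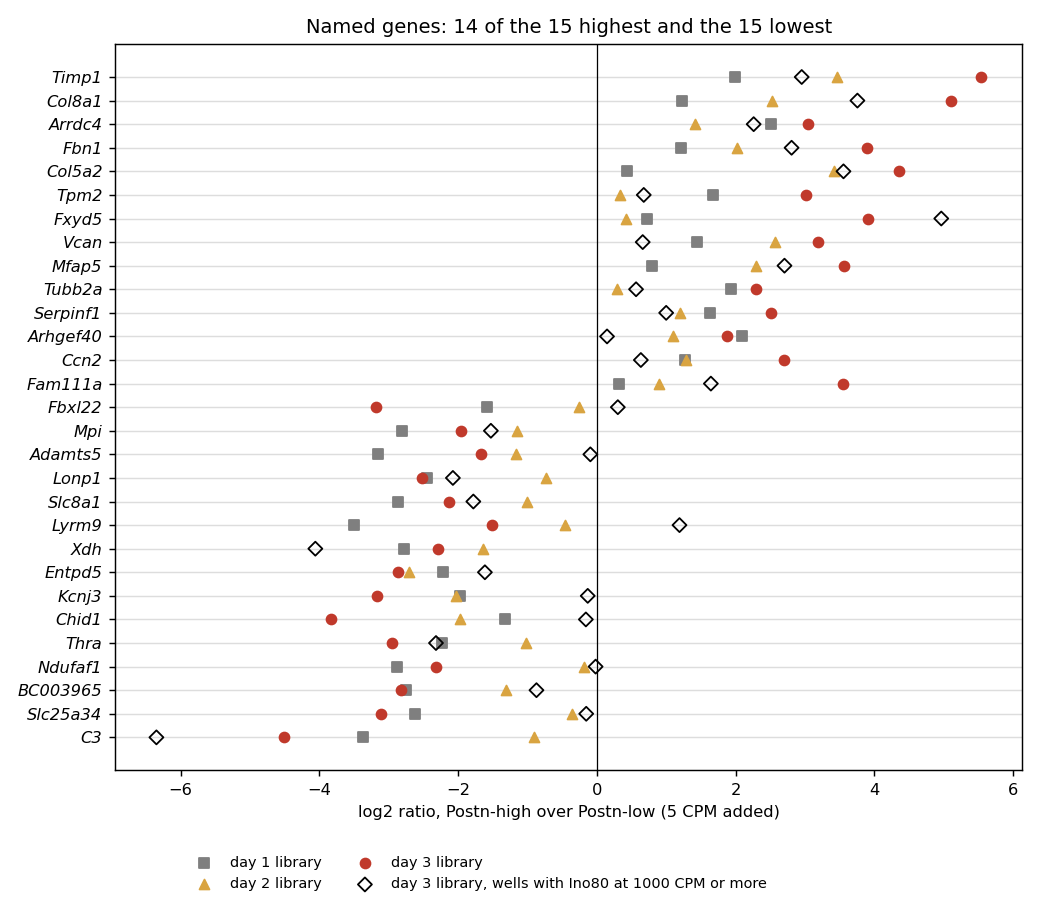
Log2 ratio of Postn-high over Postn-low wells (5 CPM added, horizontal axis) for 14 of the 15 highest and the 15 lowest named genes, with separate symbols for days 1, 2 and 3 and for the day 3 wells with Ino80 at 1000 CPM or more. Timp1 reaches 5.54 on day 3 and C3 −4.50, while in the Ino80 subset the lower genes Lyrm9 and Fbxl22 stand on the other side of 0, at 1.19 and 0.30.

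C3, the central component of complement, was the lowest named gene; it lies on the minus strand at chr17:57203970-57228136. It was at 18.5 CPM in Postn-high and 239 CPM in Postn-low wells on day 1, at 202 and 382 CPM on day 2 and at 8.62 and 304 CPM on day 3 (−3.37, −0.90 and −4.50), and at 9.04 and 1141 CPM in the Ino80 subset (−6.35). Over the wells of day 3 its lowest, median and highest level was 0, 0 and 181 CPM in Postn-high and 0, 9.63 and 7550 CPM in Postn-low wells. C3 was thus spread over the Postn-low wells unevenly, and the Postn-high wells lay within their range. Xdh, the xanthine-oxidising enzyme, was at 1.59 and 40.2 CPM on day 1, 7.15 and 54.2 CPM on day 3, and 6.84 and 192 CPM in the subset. Mesothelial markers stood higher in the Postn-low wells of that subset, and their part in these values was not tested.

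The other 13 lower genes differed in how they stood in the subset. Thra, a thyroid hormone receptor, Lonp1, a mitochondrial protease, and Entpd5, a nucleotidase of the endoplasmic reticulum, were lower in both summed counts. So were Slc8a1, the sodium-calcium exchanger of cardiomyocytes, and Mpi, mannose phosphate isomerase. The log2 ratios ran from −2.96 to −1.96 on day 3 and from −2.32 to −1.53 in the subset. A single well held 71.5% of the Postn-low counts of the subset for Thra and 77.2% for Entpd5. For Mpi, Lonp1 and Slc8a1 it held 48.99%, 39.8% and 36.8%. The Slc8a1 well medians there were near even, at 15.03 CPM in Postn-high and 15.72 CPM in Postn-low wells. Those of Lonp1 were 3.97 and 47.2 CPM and those of Mpi 5.63 and 25.06 CPM. Slc25a34 (a mitochondrial carrier), Ndufaf1 (a complex I assembly factor), Chid1 (a chitinase-domain protein), Kcnj3 (a potassium channel subunit) and Adamts5 (a versican-cleaving protease) had day 3 log2 ratios from −3.84 to −1.67 and subset values of −0.15, −0.02, −0.16, −0.13 and −0.09. In the subset Slc25a34 was at 0.551 and 1.17 CPM and Ndufaf1 at 12.7 and 12.9 CPM in Postn-high and Postn-low wells, under the 20 CPM minimum. Chid1 had a count in 3 of 23 and 1 of 9 of these wells, and Kcnj3 in 2 of 23 and 3 of 9. At levels this low the 5 CPM added pulls a ratio toward 0, so equal expression is not shown. Adamts5 had a count in 8 of 23 Postn-high and 1 of 9 Postn-low wells of the subset. That 1 Postn-low well held 223 CPM, so the even ratio of Adamts5 rests on it. BC003965 had −2.82 on day 3 and −0.87 in the subset. Lyrm9, a small mitochondrial protein, and Fbxl22, an F-box protein of the heart's sarcomere, reversed to 1.19 and 0.30 in the summed counts of the subset. The Fbxl22 well medians there did not reverse, at 3.22 CPM in Postn-high and 4.49 CPM in Postn-low wells. Lyrm9 had a count in 14 of 23 Postn-high and 1 of 9 Postn-low wells of the subset. On day 2 the mean of per-well CPM gave Slc25a34, Lyrm9 and Fbxl22 log2 ratios of 0.44, 0.05 and 0.02, against the negative ratios of their summed counts. Macrophage-like wells of day 3 held 163 CPM of Fbxl22, 71.3 CPM of Ndufaf1 and 55.9 CPM of Kcnj3, levels near those of Postn-low wells (183, 80.6 and 89.1 CPM), whereas they held 2.29 CPM of Adamts5. In all, 10 of the 30 named genes have an exon overlapping another gene, 9 of them on the opposite strand (Fbn1, Arhgef40, Ccn2, Fam111a, Thra, Chid1, Kcnj3, Slc8a1 and Fbxl22).

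The gene lists below group the pathway by role, and a list is described by its members measured and its median log2 ratio. Over all measured genes, 49.6%, 53.1% and 60.6% were higher in Postn-high wells on days 1, 2 and 3 and 50.9% in the subset, and counts of members higher are to be read against these shares. The collagens, the fibres of the scar, were higher as a group on day 3. Outside the rule 6 of 16 were measured on day 1, 10 on day 2 and 8 on day 3, and 4, 7 and 8 of these were higher in Postn-high wells, with medians of 0.48, 0.97 and 1.84. On day 1, 1 of 6 was at least 2-fold higher, beside 18.4% of all genes. All 8 measured on day 3 were at least 2-fold higher, beside 29.8% of all genes, and 7 of 8 with median-of-ratios size factors. In the Ino80 subset 6 of 8 were higher, 4 at least 2-fold beside 20.5% of all genes, with a median of 1.09. Col5a1, the partner chain of Col5a2, was at 7.65 and 8.03 CPM in Postn-high and Postn-low wells on day 1, at 150 and 14.5 CPM on day 2 and at 95.7 and 6.49 CPM on day 3, with 95.4 and 0 CPM in the subset. Col1a2, a chain of type I collagen, was at 98.2 and 66.6 CPM, 1073 and 106 CPM, and 344 and 96.5 CPM, but at 346 and 406 CPM in the subset. Col4a1 and Col4a2, basement membrane collagens, stood on day 3 at 540 and 142 CPM for Col4a1 and 156 and 65.5 CPM for Col4a2, and in the subset at 554 and 410 CPM and 160 and 162 CPM. Within the wells rich in Ino80 the minor fibrillar chain and Col8a1 thus set the classes apart, and Col1a2 and Col4a2 did not.

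Matricellular proteins, which modulate cells without forming fibres, had medians of 0.91, 1.10 and 2.21 on days 1, 2 and 3, with 5 of 7, 6 of 6 and 7 of 8 measured members of 15 higher, beside 49.6%, 53.1% and 60.6% of all genes. In the subset the median was 0.49, with 5 of 8 higher beside 50.9% of all genes. Tnc, tenascin-C, which is absent from resting heart, was at 0 and 0.463 CPM in Postn-high and Postn-low wells on day 1, 30.9 and 4.83 CPM on day 2, 88.4 and 0.355 CPM on day 3, and 92.7 and 1.17 CPM in the subset. On day 3, 15 of 26 Postn-high wells exceeded the highest Postn-low well, which held 12.5 CPM. Cthrc1, a secreted regulator of collagen deposition, was at 0 and 0 CPM on day 1, 34.6 and 0.0966 CPM on day 2 and 35.1 and 0 CPM on day 3, with 35.5 and 0 CPM in the subset. Sparc, a collagen-binding glycoprotein, was at 1179 and 410 CPM, 1177 and 626 CPM, and 1736 and 361 CPM, with 1758 and 1383 CPM in the subset. Fn1, fibronectin, was at 5.74 and 14.8 CPM, 245 and 31.4 CPM, and 87.9 and 15.6 CPM, with 91.7 and 106 CPM in the subset. Cilp, a cartilage matrix protein also made by cardiac fibroblasts, was at 261 and 8.87 CPM on day 1, where 81.3% of the Postn-high counts came from a single well, and at 37.3 and 0.152 CPM on day 3, with 30.4 and 0.391 CPM in the subset.

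Enzymes that process and crosslink collagen showed a less even pattern, with medians of 0.17, 1.00 and 0.64 on days 1, 2 and 3 and 0.52 in the subset. Of 12 members measured on day 3, 10 were higher and 4 at least 2-fold, close to the 29.8% of all genes; with median-of-ratios size factors 7 were higher. Lox, lysyl oxidase, which crosslinks collagen and elastin, was at 10.8 and 10.8 CPM in Postn-high and Postn-low wells on day 1, 334 and 10.2 CPM on day 2, 125 and 9.64 CPM on day 3 and 124 and 64.9 CPM in the subset. Loxl2 was at 153 and 27.2 CPM on day 3 and at 160 and 110 CPM in the subset. Loxl1, the family member that acts on elastin, went the other way on day 1, at 8.61 and 78.1 CPM, and was at 93.6 and 56.2 CPM on day 3 and 96.1 and 232 CPM in the subset. Pcolce, which enhances the cleavage of procollagen, was at 268 and 94.0 CPM on day 3 and 269 and 66.8 CPM in the subset. P4ha2, a prolyl hydroxylase subunit, was lower, at 0.638 and 46.1 CPM on day 1 and at 15.9 and 92.6 CPM in the subset.

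Elastic fibre and microfibril genes had medians of 0.80, 1.71 and 2.49 on days 1, 2 and 3 and 0.92 in the subset, with 6 of 9 members higher on day 3, each at least 2-fold, beside 60.6% of all genes higher and 29.8% at least 2-fold. Besides Fbn1 and Mfap5, Fbln2, a fibulin, was at 377 CPM in Postn-high and 62.9 CPM in Postn-low wells on day 3 and at 385 and 242 CPM in the subset. Ltbp2, a microfibril protein, was at 55.0 and 0.254 CPM on day 3 and at 57.7 and 1.17 CPM in the subset. Efemp2, a fibulin needed for elastic fibre assembly, was at 36.03 and 7.65 CPM on day 1 and 56.3 and 5.78 CPM on day 3, with 55.2 and 9.38 CPM in the subset. Small proteoglycans outside the rule had medians of 0.93, 1.84 and 1.52, and Bgn, biglycan, was at 191 and 91.0 CPM, 349 and 94.1 CPM, and 207 and 68.8 CPM on days 1, 2 and 3, with 208 and 49.2 CPM in the subset. Aspn, asporin, was at 149 and 75.6 CPM, 179 and 39.8 CPM, and 120 and 33.8 CPM, with 122 and 5.47 CPM in the subset. Bgn and Aspn were higher in Postn-high wells in each library.

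Proteases and their inhibitors were lower on day 1 and higher on day 3. The medians were −0.90, −0.30 and 1.21 on days 1, 2 and 3 and 1.48 in the subset, with 3 of 11, 6 of 13, 11 of 14 and 10 of 12 measured members higher. Mmp3, stromelysin, was at 0.638 CPM in Postn-high and 45.1 CPM in Postn-low wells on day 1, 22.4 and 64.8 CPM on day 2, and 44.9 and 0.457 CPM on day 3, with 46.6 and 0 CPM in the subset. Mmp2, gelatinase A, was at 55.2 and 153 CPM on day 1 and 56.7 and 35.7 CPM on day 3, and Mmp14, its membrane-bound activator, at 4.14 and 23.1 CPM on day 1 and 28.5 and 3.50 CPM on day 3. In the subset Mmp2 was at 56.8 and 17.6 CPM and Mmp14 at 29.5 and 11.3 CPM in Postn-high and Postn-low wells. Adam12, a membrane protease of activated mesenchymal cells, was at 0 and 0 CPM on day 1 and at 53.9 and 0 CPM in the subset. On day 3 as a whole it was at 51.4 and 0.101 CPM, where 46.6% of the Postn-high counts came from a single well.

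**Figure D5:**
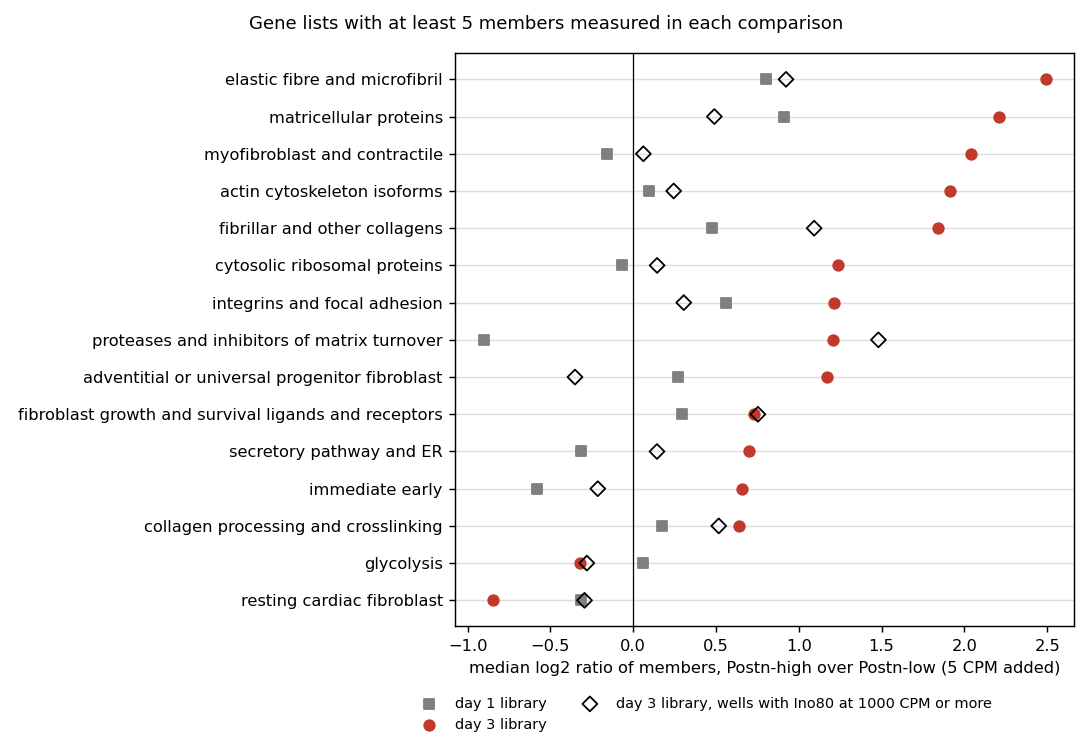
Median log2 ratio of Postn-high over Postn-low wells (5 CPM added, horizontal axis) for the 15 gene lists with at least 5 members measured in each comparison, on day 1, on day 3 and in the day 3 wells with Ino80 at 1000 CPM or more. The myofibroblast list stands at −0.16, 2.04 and 0.06 and the proteases at −0.90, 1.21 and 1.48, beside medians of −0.01, 0.36 and 0.02 over all measured genes.

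Contractile genes of the myofibroblast were not higher as a group on day 1, where 3 of 8 members were higher and the median was −0.16 (0.11 with median-of-ratios size factors). The medians of days 2 and 3 were 0.69 and 2.04, with 8 of 10 higher on day 3, and in the subset 6 of 12 were higher with a median of 0.06 (−0.05 with those size factors). Acta2 was at 14.7 CPM in Postn-high and 35.9 CPM in Postn-low wells on day 1, 73.3 and 35.6 CPM on day 2, 268 and 106 CPM on day 3, and 277 and 52.4 CPM in the subset. Its day 3 wells ranged from 0 through a median of 110 to 1363 CPM in Postn-high and from 0 through 10.3 to 802 CPM in Postn-low wells, which overlap, and macrophage-like wells held 102 CPM in the sum. Acta2 reached 100 CPM in 13 of 26 Postn-high and 15 of 53 Postn-low wells. Cald1, caldesmon, was at 661 and 144 CPM on day 3 and 684 and 290 CPM in the subset, Tpm4 at 237 and 38.7 CPM on day 3 with 244 and 80.5 CPM in the subset, and Flna, filamin A, at 153 and 36.8 CPM on day 3 with 149 and 247 CPM in the subset. Tpm1, which cardiomyocytes express strongly, was lower at 13179 and 20486 CPM on day 3, as it was in the subset at 13092 and 19236 CPM.

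Non-muscle cytoskeletal genes were higher across the list on day 3 and near even in the subset. All 15 measured members of 17 were higher on day 3, 12 at least 2-fold beside 29.8% of all genes, with a median of 1.91; with median-of-ratios size factors 14 were higher. On day 1 the median was 0.10 and in the subset 0.24. Lgals1, galectin-1, was at 1661 and 1331 CPM in Postn-high and Postn-low wells on day 1, 5105 and 1759 CPM on day 2, 8784 and 1461 CPM on day 3 and 8903 and 5063 CPM in the subset. Its well medians on day 3 were 8584 CPM (633 to 14151) and 1078 CPM (59.5 to 9816), and 10 of 26 Postn-high wells were above the highest Postn-low well. Vim, vimentin, was at 871 and 227 CPM on day 3 and 867 and 599 CPM in the subset, and S100a6, a calcium-binding protein, at 574 and 141 CPM on day 3 with 586 and 596 CPM in the subset. Cytosolic ribosomal protein genes had the same form, with 20 of 20 higher on day 3 (median 1.23), 8 of 20 on day 1 (median −0.07, 0.21 with median-of-ratios size factors) and a median of 0.14 in the subset. For these lists the difference between classes was thus small in the subset. Its wells share a minimum of Ino80 and were not matched for its level. Of its 9 Postn-low wells 5 held mesothelial markers at 100 CPM or more, and neither part was tested.

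Genes of transforming growth factor beta signalling and its targets had 10 of 10 measured members higher on day 2 (median 1.5), 6 of 7 on day 3 (median 2.70) and 5 of 9 in the subset (median 0.60), while on day 1 just 3 were measured, 1 of them higher (median −0.53). Skil, a feedback inhibitor of SMAD proteins, was at 22.6 CPM in Postn-high and 34.8 CPM in Postn-low wells on day 1, 83.9 and 26.5 CPM on day 2, 114 and 5.12 CPM on day 3, and 116 and 2.74 CPM in the subset, and 41.6% of the day 3 Postn-high counts came from a single well. Tgfb2, a ligand, was at 72.8 and 16.8 CPM on day 3 and at 75.6 and 109 CPM in the subset. Id3, a target of bone morphogenetic protein signals, was at 74.9 and 157 CPM on day 1, 248 and 33.9 CPM on day 3 and 252 and 102 CPM in the subset.

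Among integrins and adhesion proteins the medians were 0.56, −0.08 and 1.21 on days 1, 2 and 3 (0.05 on day 2 with median-of-ratios size factors) and 0.30 in the subset. Itgav, the alpha V integrin, releases transforming growth factor beta from its latent complex. It was at 2.87 CPM in Postn-high and 12.5 CPM in Postn-low wells on day 1. Its sums were 111 and 16.8 CPM on day 3, and 111 and 6.64 CPM in the subset. On day 3 it reached 100 CPM in 5 of 26 Postn-high and 2 of 53 Postn-low wells. The highest Postn-high well of that day held 705 CPM. Well medians of the subset were 3.31 and 1.73 CPM, so the Postn-high sums of Itgav rest on few wells. Of growth factors and receptors, 6 of 10 were higher on day 3 (median 0.73). Fstl1, a secreted follistatin-like protein of heart repair, was at 618 and 368 CPM, 1615 and 342 CPM, and 1155 and 167 CPM on days 1, 2 and 3, with 1132 and 320 CPM in the subset. Its well medians were 392.4 and 96.8 CPM on day 1, and 1063 and 49.2 CPM on day 3, where 3 of 26 Postn-high wells exceeded the highest Postn-low well. Igf1, insulin-like growth factor 1, was at 116 and 54.9 CPM, 265 and 55.7 CPM, and 211 and 55.0 CPM, with 216 and 36.7 CPM in the subset. Pdgfrb, a receptor of fibroblasts and pericytes, was at 26.1 and 11.7 CPM, 2.44 and 53.9 CPM, and 118 and 19.7 CPM, with 123 and 7.03 CPM in the subset. Vegfa, which cardiomyocytes also make, was lower at 25.8 and 129 CPM on day 1, 24.8 and 145 CPM on day 3 and 21.3 and 50.4 CPM in the subset, and at 160 and 149 CPM on day 2.

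Genes of the cell cycle were higher in Postn-high wells on day 3, where 11 of 11 measured members of 20 were higher and 9 at least 2-fold, beside 60.6% and 29.8% of all genes, with a median of 2.80. In the subset 10 of 11 were higher and 9 at least 2-fold, beside 50.9% and 20.5% of all genes, with a median of 2.04. Mki67, the proliferation antigen Ki-67, was at 0 CPM in Postn-high and 4.76 CPM in Postn-low wells on day 1, 120 and 0.515 CPM on day 2, 92.0 and 0.254 CPM on day 3, and 96.5 and 0.391 CPM in the subset. On day 2 93.6% of its Postn-high counts came from a single well. On day 3 Mki67 had a count in 8 of 26 Postn-high and 3 of 53 Postn-low wells, and the highest wells held 426 and 8.46 CPM. Tpx2, a spindle protein, was at 82.9 and 0 CPM on day 3, Cdk1, the mitotic kinase, at 56.3 and 0.457 CPM, Pcna, the replication clamp, at 104 and 10.8 CPM and Tyms, thymidylate synthase, at 75.7 and 5.18 CPM. In the subset these were at 86.9 and 0 CPM, 59.0 and 3.13 CPM, 109 and 31.7 CPM, and 78.7 and 0 CPM in Postn-high and Postn-low wells. Macrophage-like wells of day 3 held 25.4, 11.9, 1.01, 26.5 and 5.23 CPM of Mki67, Tpx2, Cdk1, Pcna and Tyms.

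The cell cycle genes were carried by a part of the Postn-high wells. A well was counted as holding them when at least 3 of 9 cycling genes were at 20 CPM or more. This was so in 9 of 26 Postn-high wells on day 3 (34.6%, 17.2 to 55.7), and in 0 of 53 Postn-low wells, where up to 5.66% remains possible. All 9 were among the 23 wells with Ino80 at 1000 CPM or more, against 0 of 9 Postn-low wells there, which allows up to 33.3%. On days 1 and 2 it was so in 0 of 11 and 1 of 9 Postn-high wells, and in 0 of 148 and 0 of 118 Postn-low wells. Macrophage-like wells gave 3 of 92, 3 of 82 and 2 of 64 on days 1, 2 and 3. The counts are of wells with the RNA, and no phase was assigned.

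Genes of the resting cardiac fibroblast were lower on day 3, with 12 of 15 measured members lower and a median of −0.85, or −1.20 with median-of-ratios size factors. On day 1, 13 of 15 were lower with a median of −0.32, and 9 of 15 with those size factors. On day 2, 9 of 16 were higher (median 0.11), and in the subset 6 of 12 were lower (median −0.29). Gsn was at 965 and 1930 CPM on day 3 and at 897 CPM in Postn-high and 1357 CPM in Postn-low wells of the subset. Its day 3 wells had medians of 678 CPM (6.75 to 2985) and 1316 CPM (0 to 5958), which overlap. Inmt, an indole methyltransferase, had no count in a Postn-high well of any day, against 81.2, 62.4 and 64.8 CPM in Postn-low wells on days 1, 2 and 3 and 0.782 CPM in those of the subset. Dpep1, a dipeptidase, was at 120 and 333 CPM, 153 and 196 CPM, and 94.0 and 140 CPM on days 1, 2 and 3, with 98.6 and 252 CPM in the subset.

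Other resting genes turned round between comparisons. Pdgfra, the receptor by which cardiac fibroblasts are often sorted, was at 9.57 CPM in Postn-high and 51.8 CPM in Postn-low wells on day 1, 98.1 and 39.7 CPM on day 2, 21.6 and 39.0 CPM on day 3 and 22.4 and 0.391 CPM in the subset. Its day 3 well medians ran the other way from the sums, at 11.1 CPM in Postn-high and 0 CPM in Postn-low wells. A count was seen in 18 of 26 and 25 of 53 wells, and the highest Postn-low well held 1376 CPM. Htra3, a secreted serine protease, was at 63.8 and 158 CPM, 381 and 145 CPM, and 11.3 and 58.8 CPM, with 10.5 and 0 CPM in the subset. Lpl, lipoprotein lipase, was at 1833 and 6759 CPM on day 3, but macrophage-like wells held 4735 CPM and the subset had 1692 and 1544 CPM. Mgp, matrix Gla protein, was lower in each comparison, at 1030 and 1206 CPM, 880 and 1351 CPM, 515 and 650 CPM, and 515 and 1012 CPM. Adventitial fibroblast genes had medians of 0.27, −0.03 and 1.17 on days 1, 2 and 3 and −0.35 in the subset. Ly6a, the stem cell antigen Sca-1, was at 694 and 284 CPM on day 3 and 702 and 252 CPM in the subset, and Igfbp6 at 33.1 and 99.96 CPM on day 3 with 33.0 and 176 CPM in the subset.

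Inflammatory genes stood on different sides of 0 on different days. All 4 measured members were lower on day 1 (median −1.48), 6 of 11 were higher on day 2 (0.21) and 9 of 9 on day 3 (1.59), while in the subset 4 of 11 were higher (−0.44). Ccl7, a monocyte chemokine, was at 4.78 CPM in Postn-high and 122 CPM in Postn-low wells on day 1, 741 and 126 CPM on day 2, 267 and 10.5 CPM on day 3 and 280 and 27.0 CPM in the subset, where macrophage-like wells held 409 CPM. Cxcl1, a neutrophil chemokine, was at 67.3 and 313 CPM, 801 and 298 CPM, and 235 and 74.6 CPM, with 242 and 331 CPM in the subset. Ccl2 was at 282 and 83.1 CPM on day 3 and 296 and 633 CPM in the subset, where 92.4% of the Postn-low counts came from a single well. Il33, an alarmin, was at 0.319 and 35.7 CPM on day 1 and 254 and 51.8 CPM on day 2, where 91.8% of the Postn-high counts came from a single well. Of 12 interferon response genes 5, 4 and 2 were measured on days 1, 2 and 3, with medians of −0.26, −1.60 and 1.91 (0.02 on day 1 with median-of-ratios size factors), and 4 of 5 were lower in the subset (−1.76). A list of cartilage-like matrix genes had at most 1 member measured in any library.

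Immediate early genes, which also respond to tissue dissociation, were lower on day 1 in 10 of 13 members (median −0.58), higher on day 3 in 12 of 13 (0.66) and higher in 6 of 13 in the subset (−0.21), beside 60.6% and 50.9% of all genes higher on day 3 and in the subset. With median-of-ratios size factors 9 of 13 were higher on day 3 (0.32). Ier2 was at 19.1 CPM in Postn-high and 190 CPM in Postn-low wells on day 1 and at 59.7 and 43.2 CPM on day 3, and Fos at 152 and 325 CPM on day 1 with 90.7 and 111 CPM on day 3. In the subset Ier2 was at 58.1 and 104.7 CPM and Fos at 91.5 and 236 CPM. Secretory pathway genes, which fibroblasts use to export collagen, had medians of −0.31, 0.58 and 0.70 on days 1, 2 and 3 and 0.14 in the subset. Sec61b, a translocon subunit, was at 32.2 and 52.8 CPM, 379 and 138 CPM, and 243 and 62.5 CPM, with 229 and 90.3 CPM in the subset. Genes of the integrated stress response had medians of 0.63, 0.33, 1.26 and 0.41, and Nupr1, a stress-induced chromatin protein, was at 1162 and 566 CPM, 602 and 477 CPM, 324 and 111 CPM, and 265 and 26.6 CPM. Glycolysis genes lay close to even, with medians of 0.06, 0.04, −0.32 and −0.28. Among them Hk1, a hexokinase, was at 11.5 and 60.9 CPM on day 3 and 12.02 and 139 CPM in the subset.

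The Postn-high wells of day 1 differed from those of days 2 and 3 in level, although no test across days was made. The 3 measured markers of activated fibroblasts outside the rule had a median log2 ratio of 0.80 on day 1, the 4 of day 2 2.88, the 5 of day 3 3.57 and the 5 of the subset 2.71. The 6 markers outside the rule summed to 1187 CPM in Postn-high and 674 CPM in Postn-low wells on day 1, 6199 and 1095 CPM on day 2, 6884 and 468 CPM on day 3 and 6971 and 1029 CPM in the subset. Genes whose well medians were higher in Postn-high wells of day 1 included Bgn with 287 against 45.8 CPM, Mfap5 with 1286 against 302 CPM, Sparc with 846 against 271 CPM and Fstl1 with 392.4 against 96.8 CPM. On that day the highest Postn-low well exceeded the highest Postn-high well for Mfap5 (2716 CPM in the Postn-high and 4099 CPM in the Postn-low well) and for Fstl1 (3626 and 4078 CPM), and the classes overlapped.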

How the data were processed

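Single-well polyA RNA-seq libraries of heart cells (Nextera XT, paired-end Illumina reads; 1 library per day) were used from the tables the authors deposited, which hold raw counts of reads for each gene in each well barcode. Per the submitters' processing notes, cutadapt, STAR, featureCounts and build mm10 were used; the sources used here do not state versions, annotation, strand setting or duplicate handling. Reads carry no molecular identifiers in these tables, so Poisson intervals cover the counting of reads only and not of molecules. Clopper-Pearson intervals cover the counting of wells only. Per the labels' protocols, imaging chose single live cells, and no doublet caller was run.

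Of 55502 features, 55401 were mouse genes; 55141 matched a symbol in GENCODE release M21 by identifier. Totals excluded 37 mitochondrial genes and added sequences. Counts were summed per library and class, expressed as CPM, and compared as log2 ratios with 5 CPM added, among genes with a mean of at least 20 CPM and outside the 9 genes of the rule. Intervals are 95% exact Poisson or Clopper-Pearson, and a share of 0 is given the limit of 3 counts. No test was made. Python 3.11.15, numpy 2.4.6, scipy 1.17.1, pandas 2.3.3 and matplotlib 3.10.9 were used, and the counting steps were tested on simulated data. Genes were named when ranked by the equal-weight mean log2 ratio of days 1 and 3, with at least 20 CPM in each, counts in 25% or more of the higher class's wells, at most 25% of that class's counts from a single well (both over the 3 libraries together), and 1 direction in the summed counts of all 3 libraries and in the mean of per-well CPM of days 1 and 3; the 15 highest and 15 lowest were taken, without genes of the rule, Gm and Rik symbols, pseudogenes, mitochondrial and ribosomal protein genes. Day 2 has 9 Postn-high wells, under the minimum of 10, and did not enter the ranking. Alternatives changed the well limits, Postn limits, fibroblast and macrophage sums, scaling, expression minimum, pseudocount, pooling and depth. A gene of the 15 highest and some list members are not reported here. The members and the gene lists were chosen with earlier results of these data known.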

Additional observations from a re-analysis of the deposited data

Results flagged for a closer look

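For 8 gene lists with at least 5 members measured on both days the median of the members lay on 1 side of 0 on day 1 and on the other side on day 3, and the difference was not tested. The median log2 ratio of Postn-high over Postn-low wells was higher on day 3 than on day 1 by 2.20 for the contractile genes of the myofibroblast, by 2.11 for proteases and their inhibitors, by 1.30 for cytosolic ribosomal proteins, by 1.23 for immediate early genes and by 1.01 for the secretory pathway. For glycolysis genes the day 3 minus day 1 difference was −0.38. Endothelial markers differed by 0.76 (0.67 on day 3 and −0.08 on day 1), and atrial cardiomyocyte markers by 1.22 (0.43 on day 3 and −0.79 on day 1). The median over all measured genes was 0.36 on day 3 and −0.01 on day 1. With median-of-ratios size factors the contractile genes stood at 0.11 on day 1 and 1.69 on day 3. The ribosomal proteins stood at 0.21 and 0.87, so neither list changed side under that scaling. The protease, immediate early, secretory and glycolysis lists still did. With fewer members measured on a day, the TGF-beta, inflammatory, cell cycle and interferon lists also lay on different sides of 0, at 2.70, 1.59, 2.80 and 1.91 on day 3 and at −0.53, −1.48, −0.27 and −0.26 on day 1. With median-of-ratios size factors the interferon list was at 0.02 on day 1, and the TGF-beta, inflammatory and cell cycle lists still lay on different sides.

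Sequences outside the mouse genome had counts in these wells. ERCC spike-in sequences had 67 counts, SIRV spike-in sequences 44, EGFP 242 and the 3xFlag tag 8, over all Postn-high and Postn-low wells of the 3 libraries. Of the EGFP counts 211 came from 3 Postn-low wells of day 1.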

How the results depend on the processing

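The share of Postn-high wells stayed within its interval under all 21 alternatives, with ranges of 3.70 to 8.64% (day 1), 4.58 to 9.62% (day 2) and 25 to 34.5% (day 3). Of 96 alternative counts of genes at least 2-fold apart, 72 were within 1.5 times of the reported count and 24 were not. With Postn limits of 200 and 10 CPM, 1260 genes were lower on day 1 and 624 over the mean of days 1 and 3. With a fibroblast sum of at least 3000 CPM, 1009 were lower on day 3 and 637 over the mean. With mitochondrial genes in the total, 531 were lower on day 1 and 267 over the mean. With median-of-ratios size factors, 840 were higher and 1002 lower on day 3. With a minimum of 5 CPM, 2494 were lower on day 1, 2388 were higher and 1393 lower on day 3, and 685 were higher and 1039 lower over the mean. With a minimum of 50 CPM, 427 were higher and 271 lower on day 1, 678 and 301 on day 3, and 174 and 146 over the mean; these minimums test other numbers of genes. A pseudocount of 20 CPM gave 249 higher and 219 lower over the mean, pooling the libraries 603 higher, and day 2 alone, added after seeing the data, 1051 higher and 851 lower. Except for the 2 minimums, the cause was not tested.

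Of 1056 alternative log2 ratios of single genes and lists, 843 moved little, 209 moved more and, among values at least 2-fold as reported, 4 reversed. The reversals came with day 3 wells of 1000 CPM of Ino80 or more, added after seeing the data: adventitial genes at −0.35, inflammatory genes at −0.44, Lyrm9 at 1.19 and Fbxl22 at 0.30, the cause not tested. Setting class sums of 0 to 3 counts shifted 0 of 83 list medians. This check could show little, since 5 CPM was already added and members had a mean of at least 20 CPM. Ratios pair the classes within each library, and no paired test or replicate block was run, since 3 pairs cannot give an exact p under 0.25. With 11 and 9 Postn-high wells on days 1 and 2, and 9 Postn-low wells in the Ino80 comparison, single wells limit the precision.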
